A study of Mus musculus with 6 samples.

Results

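WNT and R-spondin signalling in the fetal ovary was followed through 10 genes: the ligands Wnt4, Wnt5a and Wnt6, the R-spondin Rspo1, the receptors Lgr5 and Lgr4, the ubiquitin ligases Znrf3 and Rnf43, and the target genes Axin2 and Lef1. They were chosen by name as ovarian members of the pathway, and all 10 are among the 25239 genes of the deposited count table. The ovaries came from C57BL/6 mice at E18.5, and bulk RNA-seq gave 3 libraries with the genotype WT and 3 with the genotype Hnrnpl-null. Hnrnpl encodes an RNA-binding protein of splicing, and germ cells and the primordial follicle pool are the subject that the series title gives. The titles of the Hnrnpl-null libraries carry the letters CKO, and the labels name neither a Cre driver nor the exons removed. Ovaries were dissociated with Liberase and DNase, and the labels name no sort. Whether each library is a different animal is not stated, so the p-values rest on a spread between libraries that may be technical.

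WNT ligands bind Frizzled and LRP receptors on a neighbouring cell, which stabilises beta-catenin and lets TCF/LEF factors switch on target genes. R-spondins bind LGR receptors and hold off Znrf3 and Rnf43, the ligases that remove Frizzled from the cell surface, and so raise the response to WNT. In the fetal mouse ovary Rspo1 and Wnt4 are made by somatic supporting cells, the pregranulosa cells, and are needed for ovarian rather than testicular development. Lgr5 marks pregranulosa cells that arise from the ovarian surface epithelium.

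Levels below are CPM, counts scaled to a common library size by TMM, or RPKM, the same value per kilobase of exon. Total counts per library ran from 8949781 to 22401419, but the ribosomal precursor Rn45s made up 83.0% of WT replicate 1, 86.1% of Hnrnpl-null replicate 3 and 18.6% to 36.0% of the rest. Counts outside Rn45s ran from 1757572 to 10980179, and the members had from 24 to 3616 counts. Hnrnpl-null replicate 3 stood apart on the first principal component, at 112 against -36.1 to -5.91, and WT replicate 1 on the second, at 54.4 against -40.6 to 11.7, so results are also given without these libraries. Hnrnpl itself was at 172, 169 and 145 CPM in WT and 166, 173 and 213 CPM in Hnrnpl-null (edgeR adjusted p = 0.50), so its summed count does not check the labels.

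The cell type label of all libraries is oocyte, but transcripts of supporting cells were plain in every one. The 12 markers of pregranulosa and supporting cells were all detected and summed to 905 to 988 CPM in WT and 985 to 1110 CPM in Hnrnpl-null. Among them Foxl2, the forkhead factor of granulosa cells, was at 25.6 ± 2.27 in WT and 27.2 ± 5.69 CPM in Hnrnpl-null (n = 3 each, SD), and Wt1, a factor of gonadal somatic cells, at 211 ± 14.0 and 207 ± 19.2 CPM. Of the 12, edgeR called 1 higher in Hnrnpl-null, Kitl, the ligand of Kit, and 2 were higher by DESeq2 and 2 by limma-voom. From WT to Hnrnpl-null the mean of the summed markers went from 935 to 1050 CPM, and Kitl alone from 78.4 to 174 CPM. The higher sum thus rested largely on this gene. The median log2 fold change of the 12 was 0.058, with 4 of them below 0. The 10 germ cell markers summed to 241 to 256 CPM in WT and 93.7 to 108 CPM in Hnrnpl-null. All 10 fold changes were below 0, and edgeR called 9 lower, beside 1.79% of all tested genes. In the lists that follow, counts of genes called higher are by edgeR unless another tool is named. Over all 14849 tested genes, edgeR called 2.67% higher. DESeq2 called 643 higher and 443 lower, and limma-voom 775 higher and 498 lower. These backgrounds apply to all marker lists, those above among them. Surface epithelium markers summed to 460 to 540 CPM in WT and 565 to 738 CPM in Hnrnpl-null, with 3 of 9 called higher, 7 of 9 higher at an unadjusted p below 0.05 and all 9 fold changes above 0. Stromal and pericyte markers summed to 4960 to 5370 and 7440 to 8450 CPM, with 3 of 11 called higher and a median log2 fold change of 0.006. The collagen genes Col1a1 and Col3a1 made up 91.1% of that WT sum. The other 9 markers summed to 458 to 468 CPM in WT and 486 to 525 CPM in Hnrnpl-null. Dcn, 1 of these 9, was also called higher, at 75.9 ± 13.0 in WT and 114 ± 16.3 CPM in Hnrnpl-null (edgeR adjusted p = 0.037). Over all 11 stromal and pericyte markers, DESeq2 called 3 higher and 1 lower, and limma-voom 4 higher and 1 lower. Markers of leukocytes and blood progenitors summed to 90.0 to 96.8 CPM in WT and 705 to 855 CPM in Hnrnpl-null, with 8 of 12 called higher, and mast cell markers to 155 to 162 and 792 to 922 CPM, with 5 of 5 tested called higher. Endothelial markers summed to 149 to 185 and 153 to 165 CPM. Of these 7, 0 were called by edgeR, 3 had an unadjusted p below 0.05, and both DESeq2 and limma-voom called 1 higher and 1 lower. Their median log2 fold change was -0.41, with 6 of 7 below 0. The exception was Kdr, the most abundant of them, at 80.8 ± 3.33 in WT and 103 ± 1.99 CPM in Hnrnpl-null. The part of these cells in the values below was not tested. In bulk RNA, fewer cells of a type and less RNA per cell cannot be told apart.

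Of the 10 members, 1 passed the edgeR test, Axin2, which fell to 0.714 of WT. The other 9 were not called by edgeR. The share of all 14849 tested genes that edgeR called at an adjusted p below 0.05 was 4.46%, and 1.79% were called lower. None of the 10 was called higher by edgeR, beside 2.67% of all genes, while limma-voom called 1 higher, Wnt5a, beside 775 of all 14849 genes. At an unadjusted p below 0.05, 1 member of 10 was lower (Axin2), beside 8.53% of all genes, and 1 was higher (Wnt5a), beside 9.97%, so these shares were near the background. The groups of 3 did not overlap for 5 members, beside 25.6% of all genes. Wnt4, Wnt5a and Lgr4 lay above WT, beside 12.4% of all genes, and Axin2 and Rnf43 below it, beside 13.2%. The median log2 fold change of the members was -0.11, beside -0.01 over all genes tested. All 10 passed the filter on low counts.

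**Figure D1:**
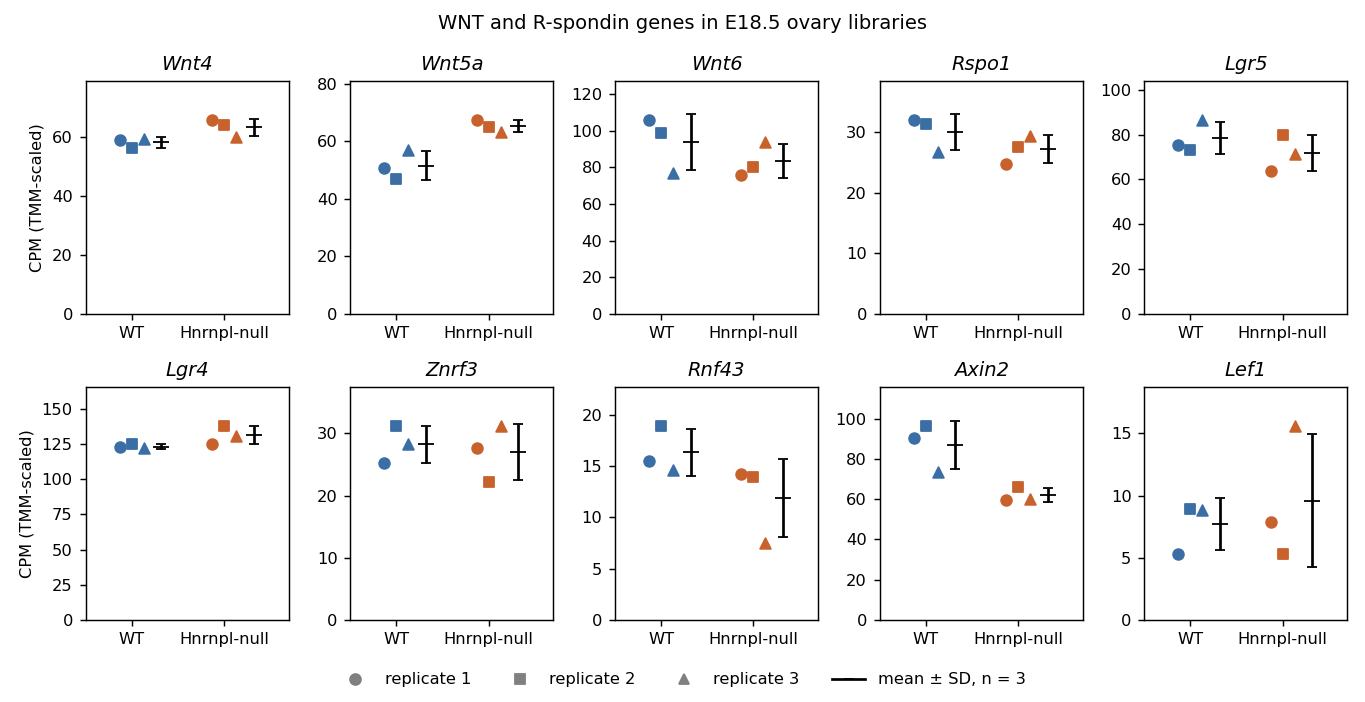
Level of each gene in every library, in CPM on TMM-scaled library sizes, with 1 point per library and the mean ± SD (n = 3) as a black bar. Each axis starts at 0. The Axin2 points of Hnrnpl-null, 59.7 to 65.9 CPM, all lie below the WT points, 73.3 to 96.4 CPM, while the Lef1 points spread most, up to 15.6 CPM in Hnrnpl-null replicate 3.

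Axin2 (chromosome 11, 108920349 to 108950781, mm10, plus strand) encodes a scaffold of the complex that degrades beta-catenin and is itself switched on by WNT, which makes it a widely used readout of the pathway. It was at 90.6, 96.4 and 73.3 CPM in WT replicates 1 to 3 and at 59.7, 65.9 and 60.0 CPM in those of Hnrnpl-null. The 3 Hnrnpl-null libraries lay close together and below every WT library, and WT replicate 3 was the nearest to them. The means were 86.8 ± 12.0 and 61.9 ± 3.51 CPM (n = 3 each, SD). The log2 fold change was -0.49 ± 0.13 (SE), with a 95% interval of 0.593 to 0.861 for the ratio (edgeR quasi-likelihood test, adjusted p = 0.044). The call was close to the threshold and rested on all libraries but 1. It was lost when WT replicate 1 or 2 was left out, or any 1 of the Hnrnpl-null libraries, with an adjusted p of 0.056 to 0.22 by edgeR, and without both libraries rich in Rn45s (log2 fold change -0.43, adjusted p = 0.088). DESeq2 gave an adjusted p of 0.0061 and limma-voom one of 0.018, within a range of 0.0061 to 1.0 over all alternatives, the highest with library totals alone. The log2 fold change was below 0 in each of the 20 alternatives, between -0.62 and -0.40. Among these, the threshold of 0.01 reuses the main fit, so its fold change could not differ. Scaled to the pregranulosa markers in place of TMM it was -0.62 (edgeR adjusted p = 0.042), where the median of all genes was -0.13. The markers used for this scaling include Kitl, itself called higher in Hnrnpl-null (log2 fold change 1.15). Such scaling shifts every gene downward, and a scaling without Kitl was not run.

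**Figure D2:**
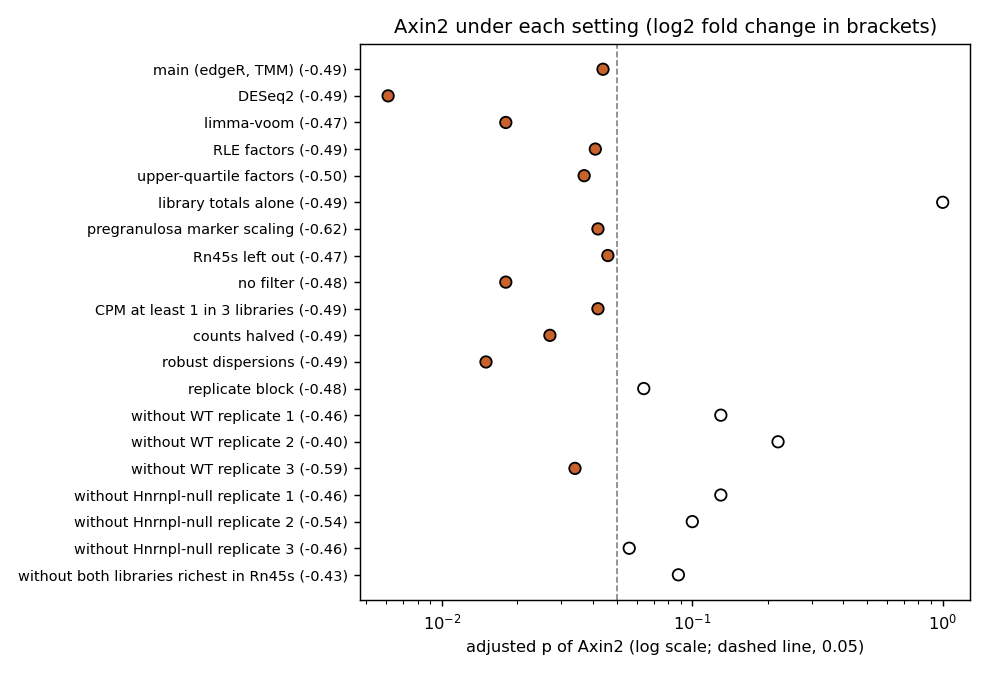
Adjusted p of Axin2 on a log axis under the main test and each alternative that refits the model, with the log2 fold change (Hnrnpl-null minus WT) in brackets and the dashed line at 0.05. Filled points are calls. Changing the tool or filter kept the call, while leaving out 1 library ended it in 5 of 6 cases.

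Lef1 (chromosome 3, 131110297 to 131224357), which encodes a DNA-binding partner of beta-catenin and is also a target of the pathway, was the member with the lowest level per length. It was at 5.27, 8.95 and 8.82 CPM in WT and 7.84, 5.33 and 15.6 CPM in Hnrnpl-null. The groups overlapped, and the highest and nearly the lowest value both came from Hnrnpl-null. The highest, in the shallow replicate 3, rests on 50 counts, or 25 read pairs if a pair is worth 2 counts, with an exact 95% Poisson interval of 10.1 to 23.1 CPM that covers counting error only. The ratio was 1.11 with a 95% interval of 0.660 to 1.88 (edgeR adjusted p = 0.86). Its direction turned without WT replicate 1, where the log2 fold change was -0.04, without Hnrnpl-null replicate 3 (-0.25), and without both (-0.43, edgeR adjusted p = 0.40). These libraries give no settled direction for Lef1. Lymphoid cells also use Lef1, and the 9 lymphoid markers summed to 31.6 to 36.0 CPM in WT and 24.9 to 30.9 CPM in Hnrnpl-null. Tcf7, which is also a WNT effector, made up 88.8% of the WT sum. The other 8 summed the other way, to 2.89 to 4.48 CPM in WT and 4.64 to 8.12 CPM in Hnrnpl-null. The highest sum, in the shallow replicate 3, rests on at most 8 counts per gene. Of the 4 tested, 0 were called by edgeR or DESeq2 and 1, Tcf7, was lower by limma-voom. Among the other 8, Rag1, Il7r and Cd79a lay above WT in every Hnrnpl-null library, while Cd3e, a defining marker of T cells, was at 0 in all 3 Hnrnpl-null libraries. The part of lymphoid cells in the Lef1 values was not tested.

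The start regions of both target genes are shown because Axin2 carried the call among the members and Lef1 showed no settled direction. They are the 250 bases before the RefSeq start site (GRCm38.p6, plus strand), at chr11:108920099-108920348 for Axin2 and chr3:131110047-131110296 for Lef1. Capitals mark the 5-letter TCF/LEF core CTTTG on either strand.
Axin2: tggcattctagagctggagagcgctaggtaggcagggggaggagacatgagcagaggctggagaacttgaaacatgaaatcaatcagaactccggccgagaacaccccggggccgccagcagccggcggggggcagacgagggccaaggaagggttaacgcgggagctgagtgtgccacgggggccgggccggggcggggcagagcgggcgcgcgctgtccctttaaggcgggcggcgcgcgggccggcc
Lef1: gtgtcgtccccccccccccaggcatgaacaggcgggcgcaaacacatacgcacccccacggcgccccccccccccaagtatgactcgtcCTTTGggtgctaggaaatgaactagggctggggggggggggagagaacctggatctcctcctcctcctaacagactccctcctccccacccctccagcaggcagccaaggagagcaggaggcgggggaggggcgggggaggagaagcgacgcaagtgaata
RefSeq windows of 250 bases before to 50 after a start were found for 7 of the 10 members, 11 windows in all, and not for Wnt5a, Lgr5 and Znrf3. The longer motifs CTTTGAA and CTTTGAT, searched on both strands, were in 0 of these 7 genes' windows, beside 8.65% of all 32851 windows. The short core, which lies within both longer motifs, was in 4 of the 11 windows, or 36.4%, beside 53.9% of all windows. All 4 belong to Lef1, 1 of the 7 genes, and some of them overlap, so the window share counts this gene repeatedly. In the printed stretch the core lies at -161 from the start. The Axin2 stretch is rich in G and C, at 69.2%, and the Lef1 stretch at 66.4%. These are matches of letters in short windows and not binding sites.

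Of the 3 WNT ligands, edgeR and DESeq2 called 0, and limma-voom called 1, Wnt5a. Wnt4 (chromosome 4, 137277635 to 137299501), the ligand of ovarian determination, was at 59.0, 56.1 and 59.4 CPM in WT and 65.8, 63.9 and 60.0 CPM in Hnrnpl-null. Every Hnrnpl-null library was above every WT library, but the gap between the nearest was small beside the spread within the groups. The ratio was 1.09 with a 95% interval of 0.927 to 1.28 (edgeR adjusted p = 0.60). Scaled to the pregranulosa markers, Kitl among them, the log2 fold change went from 0.13 to -0.005.

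Wnt5a (chromosome 14, 28505473 to 28527447), a ligand that acts mostly without beta-catenin, was at 50.8, 46.8 and 56.9 CPM in WT and 67.5, 64.9 and 63.4 CPM in Hnrnpl-null. All Hnrnpl-null libraries were above all WT libraries. The log2 fold change was 0.34 ± 0.12 (SE), a ratio of 1.27 with a 95% interval of 1.07 to 1.51, and it missed the threshold over all genes in edgeR (adjusted p = 0.12) and DESeq2 (adjusted p = 0.085). It passed in limma-voom alone of the alternatives (adjusted p = 0.045, range over the alternatives 0.045 to 1.0). The stromal markers Col1a1, Col3a1 and Dcn were also higher in Hnrnpl-null (called by edgeR). The stromal and pericyte list as a whole was mixed, with 6 fold changes above 0, 5 below and a median log2 fold change of 0.006. The part of stromal cells in the Wnt5a difference was not tested. Wnt6 (chromosome 1, 74771892 to 74785319), a ligand of epithelia, was at 106, 98.9 and 76.7 CPM in WT and 75.9, 80.3 and 93.7 CPM in Hnrnpl-null. The groups overlapped, since WT replicate 3 was as low as the lowest Hnrnpl-null libraries, and the ratio was 0.884 with a 95% interval of 0.722 to 1.08 (edgeR adjusted p = 0.53).

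Rspo1 and its receptors were not called by edgeR, DESeq2 and limma-voom either. Rspo1 (chromosome 4, 124986430 to 125009099) was at 32.1, 31.4 and 26.7 CPM in WT and 24.8, 27.6 and 29.4 CPM in Hnrnpl-null. The groups overlapped, with a ratio of 0.899 and a 95% interval of 0.729 to 1.11 (edgeR adjusted p = 0.62). Lgr5 (chromosome 10, 115450314 to 115587780, minus strand), a receptor of R-spondins, was at 75.2, 73.3 and 86.6 CPM in WT and 63.9, 80.0 and 71.2 CPM in Hnrnpl-null. These values also overlapped, with a ratio of 0.916 and a 95% interval of 0.763 to 1.10 (edgeR adjusted p = 0.64). Lgr4 (chromosome 2, 109917647 to 110014257), the more widely expressed receptor, was at 123, 125 and 122 CPM in WT and 125, 138 and 131 CPM in Hnrnpl-null. Its ratio was 1.06 with a 95% interval of 0.911 to 1.24, the narrowest of the 10 members on the log2 scale (edgeR adjusted p = 0.70). Scaled to the pregranulosa markers, the direction of Lgr4 turned (log2 fold change -0.05).

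Of the pair of ligases that R-spondin holds off, both encoded by genes that are themselves WNT targets, neither was called by these tools. Znrf3 (chromosome 11, 5276329 to 5444847, minus strand) was at 25.2, 31.2 and 28.3 CPM in WT and 27.7, 22.2 and 31.2 CPM in Hnrnpl-null, and the groups overlapped fully. Its ratio was 0.939 with a 95% interval of 0.743 to 1.19 (edgeR adjusted p = 0.82), and its direction turned without Hnrnpl-null replicate 2 (log2 fold change 0.04). Rnf43 (chromosome 11, 87663087 to 87735539), whose exons overlap those of 1110028F11Rik on the same strand, was at 15.5, 18.9 and 14.6 CPM in WT and 14.2, 13.9 and 7.5 CPM in Hnrnpl-null. All Hnrnpl-null values were below WT, but the first and second lay just under the lowest WT value. The third rests on 24 counts, with an exact 95% Poisson interval of 3.88 to 13.1 CPM. The ratio was 0.762 with a 95% interval of 0.549 to 1.06 (edgeR adjusted p = 0.37), and without both Rn45s-rich libraries the log2 fold change went from -0.39 to -0.25.

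**Figure D3:**
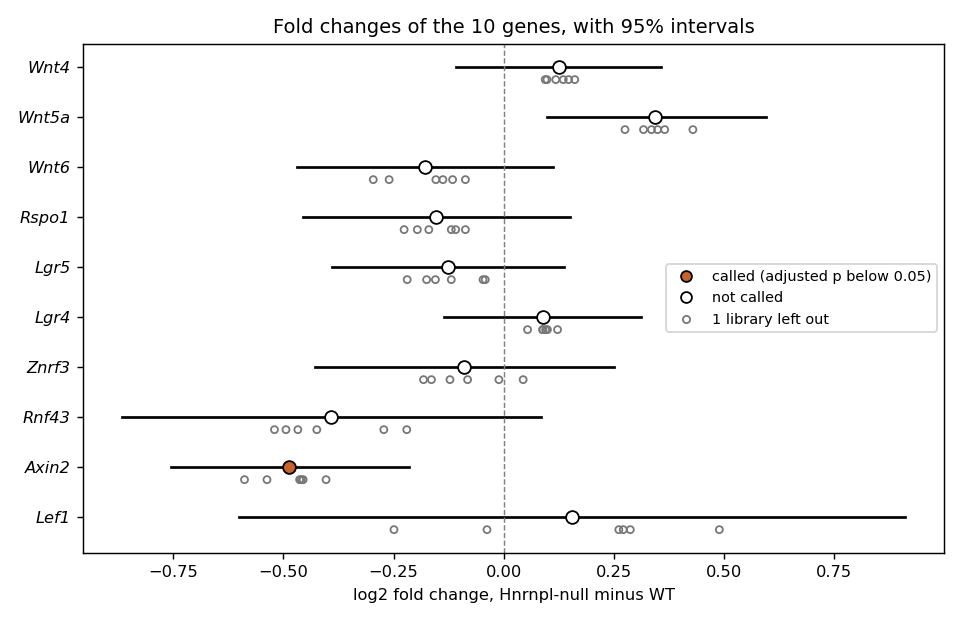
Log2 fold change of each gene, Hnrnpl-null minus WT, from edgeR, with its 95% interval as a line and, as small open circles, the values when 1 library is left out. The filled point, Axin2, is the only call. The intervals of Axin2 and Wnt5a do not reach 0, and that of Lef1 is the widest.

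The intervals show how large a change these libraries leave room for. For 6 of the 10 members the 95% interval of the ratio lay within a change of 1.5-fold in either direction. The members outside it were Axin2, Wnt5a, Lef1 and Rnf43, and the lowest and highest bounds over all members were 0.549, for Rnf43, and 1.88, for Lef1. A missed threshold does not show that a gene was at the same level in both groups.

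Per exon length, the ligand Wnt6 was the most abundant member and Lef1 the least in WT. The WT levels in order were Wnt6 at 45.4 ± 7.38, Lgr4 at 24.4 ± 0.31, Axin2 at 20.4 ± 2.83, Lgr5 at 16.6 ± 1.52 and Rspo1 at 16.4 ± 1.6 RPKM (SD, n = 3). Below them came Wnt4 at 15.2 ± 0.467, Wnt5a at 8.17 ± 0.805, Znrf3 at 3.68 ± 0.393, Rnf43 at 3.60 ± 0.498 and Lef1 at 2.08 ± 0.567 RPKM. Neighbours in this order whose WT libraries overlapped were Axin2 and Lgr5, Lgr5 and Rspo1, Rspo1 and Wnt4, and Znrf3 and Rnf43, so their order is not settled. In Hnrnpl-null, Wnt6 at 40.3 ± 4.50 and Lgr4 at 26.0 ± 1.21 RPKM again led. Axin2, at 14.5 ± 0.825 RPKM, went from rank 3 by mean to rank 6, behind Wnt4 at 16.5 ± 0.775, Lgr5 at 15.2 ± 1.71 and Rspo1 at 14.9 ± 1.26 RPKM. Its Hnrnpl-null libraries, at 14.0 to 15.5 RPKM, lay within the ranges of Lgr5, 13.6 to 17.0 RPKM, and Rspo1, 13.5 to 16 RPKM, so this rank is not settled. The lowest were Znrf3 at 3.53 ± 0.593, Rnf43 at 2.62 ± 0.837 and Lef1 at 2.60 ± 1.46 RPKM, below Wnt5a at 10.4 ± 0.322 RPKM.

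**Figure D4:**
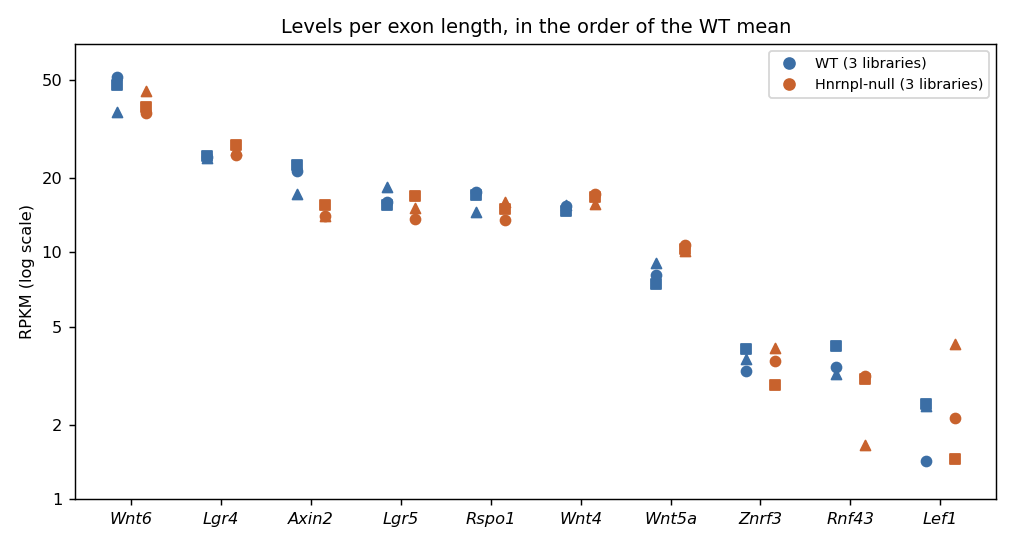
RPKM of each gene in every library on a log axis, ordered by the WT mean, with 1 point per library and the marker shapes for replicates 1 (circle), 2 (square) and 3 (triangle). Wnt6 is at the top at 36.7 to 51.2 RPKM, a middle group of genes lies between 13.5 and 27.2 RPKM, and Znrf3, Rnf43 and Lef1 lie at 4.24 RPKM or below.

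Ratios of a pair of members within a library do not depend on library scaling, and 4 were compared with an exact permutation test, in which 3 against 3 cannot go below p = 0.10. The log2 ratio of Lgr5 to Lgr4 counts was -0.71, -0.77 and -0.50 in WT and -0.97, -0.78 and -0.88 in Hnrnpl-null. It was lower in every Hnrnpl-null library, by 0.22 on average (difference -0.22, exact two-sided p = 0.10, 0.40 adjusted over the 4 ratios). For Rspo1 to Wnt4 the difference was -0.26 (exact two-sided p = 0.20, adjusted 0.40), with groups that overlapped. For Znrf3 to Rnf43 it was 0.43 (exact two-sided p = 0.60, adjusted 0.60), and without both Rn45s-rich libraries it was -0.02. For Axin2 to Lef1 it was -0.69 (exact two-sided p = 0.40, adjusted 0.53), and without those libraries 0.04, so neither difference held in the 4 deeper libraries.

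Across the rest of the WNT pathway, edgeR called 1 of the 72 tested genes, lower, beside 4.46% of all genes called and 1.79% called lower. DESeq2 called 5, with 2 higher and 3 lower, beside 1086 of all 14849 genes, 643 higher and 443 lower. The limma-voom calls were 7, with 2 higher and 5 lower, beside 1273 of all genes, 775 higher and 498 lower. Both counts were near these backgrounds, which also apply to the calls by these tools in the lists below. Of the 91 other genes of the 8 lists, 19 did not pass the filter on low counts, and at an unadjusted p below 0.05 stood 17 of 72, with 11 lower and 6 higher, beside 1266 lower and 1480 higher among all 14849 genes. The median log2 fold change of the 72 was -0.02. The gene that edgeR called was Tle2, a Groucho-type corepressor that TCF/LEF factors bind when beta-catenin is absent. It was at 44.8, 47.1 and 35.8 CPM in WT and 32.1, 23.0 and 23.7 CPM in Hnrnpl-null, with the groups apart. It fell by 0.68 on the log2 scale, with a ratio of 0.623 and a 95% interval of 0.489 to 0.794 (edgeR adjusted p = 0.031, range over the alternatives 0.0017 to 1.0). The call did not hold with WT replicate 1, WT replicate 2 or Hnrnpl-null replicate 2 left out (adjusted p by edgeR of 0.090 to 0.15), or without both Rn45s-rich libraries (adjusted p = 0.061). Scaled to the pregranulosa markers it was at -0.80 on the log2 scale (edgeR adjusted p = 0.051).

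Tle2 was the 1 call by edgeR and by DESeq2 among the 11 nuclear effectors, of which 4 had an unadjusted p below 0.05, all lower, and the list median was -0.16. By limma-voom 3 were called, all lower: Tle2 (adjusted p = 0.014), its relative Tle1 (0.041) and Tcf7, a TCF factor (0.041). Of the 11 other target genes tested, 0 were called by edgeR, 3 had an unadjusted p below 0.05, all lower, and DESeq2 and limma-voom each called 1, Irx3. Their median was -0.16, and their summed level was 455 to 487 CPM in WT and 420 to 430 CPM in Hnrnpl-null. Tnfrsf19, the most abundant per length of these targets and a receptor of the TNF family, was at 227 ± 6.64 in WT and 203 ± 9.98 CPM in Hnrnpl-null (n = 3 each, SD; edgeR adjusted p = 0.48). Irx3, a homeobox factor of pregranulosa cells, was named after its values were seen. It was at 48.5, 44.4 and 33.7 CPM in WT and 27.1, 27.5 and 32.5 CPM in Hnrnpl-null, groups that did not overlap (log2 fold change -0.55 ± 0.15, edgeR adjusted p = 0.060). DESeq2 gave an adjusted p of 0.020 and limma-voom one of 0.019.

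Outside the 10 members, the components upstream of the nucleus had no call in edgeR. Of 12 genes of the destruction complex and its transducers, 0 were called, 2 had an unadjusted p below 0.05, and DESeq2 and limma-voom each called Axin1, lower. Ctnnb1, which encodes beta-catenin, was at 427 ± 19.2 in WT and 416 ± 18.4 CPM in Hnrnpl-null (ratio 0.974, 95% interval 0.812 to 1.17, edgeR adjusted p = 0.91). Of 16 receptors, 0 were called by edgeR, 4 had an unadjusted p below 0.05, and DESeq2 and limma-voom each called Ptk7, higher. Ptk7, a pseudokinase of planar cell polarity, was the most abundant of them per length, at 194 ± 11.1 in WT and 240 ± 10.1 CPM in Hnrnpl-null (edgeR adjusted p = 0.15). Of 11 secreted inhibitors tested, 0 were called by edgeR, 2 had an unadjusted p below 0.05, and DESeq2 and limma-voom each called Sfrp1, higher. Sfrp1, a secreted protein that binds WNT ligands, was at 95.6, 108 and 106 CPM in WT and 133, 133 and 141 CPM in Hnrnpl-null, groups that did not overlap (log2 fold change 0.40 ± 0.11, edgeR adjusted p = 0.053). DESeq2 gave it an adjusted p of 0.0057 and limma-voom one of 0.015.

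Of the other WNT ligands, 6 of 16 were tested and edgeR, DESeq2 and limma-voom called 0, with 1 at an unadjusted p below 0.05. Wnt2b led them at 42.6 ± 3.77 RPKM in WT and 45.7 ± 2.68 RPKM in Hnrnpl-null (edgeR adjusted p = 0.70), a level per length near that of Wnt6. Wls, the carrier that takes WNT ligands to the cell surface, was at 79.1 ± 6.45 and 95.3 ± 11.5 CPM (edgeR adjusted p = 0.24). Porcn encodes the enzyme that adds the lipid to WNT ligands, and edgeR, DESeq2 and limma-voom called neither gene. Wls had an unadjusted p of 0.039. Of 3 tested genes among the other R-spondins and Lgr6, 0 were called by the same tools and 0 had an unadjusted p below 0.05. Rspo3, the highest of them, was at 5.27 ± 2.01 and 7.4 ± 2.8 CPM (edgeR adjusted p = 0.42), far below Rspo1 per length, at 2.2 against 16.4 RPKM in WT.

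**Figure D5:**
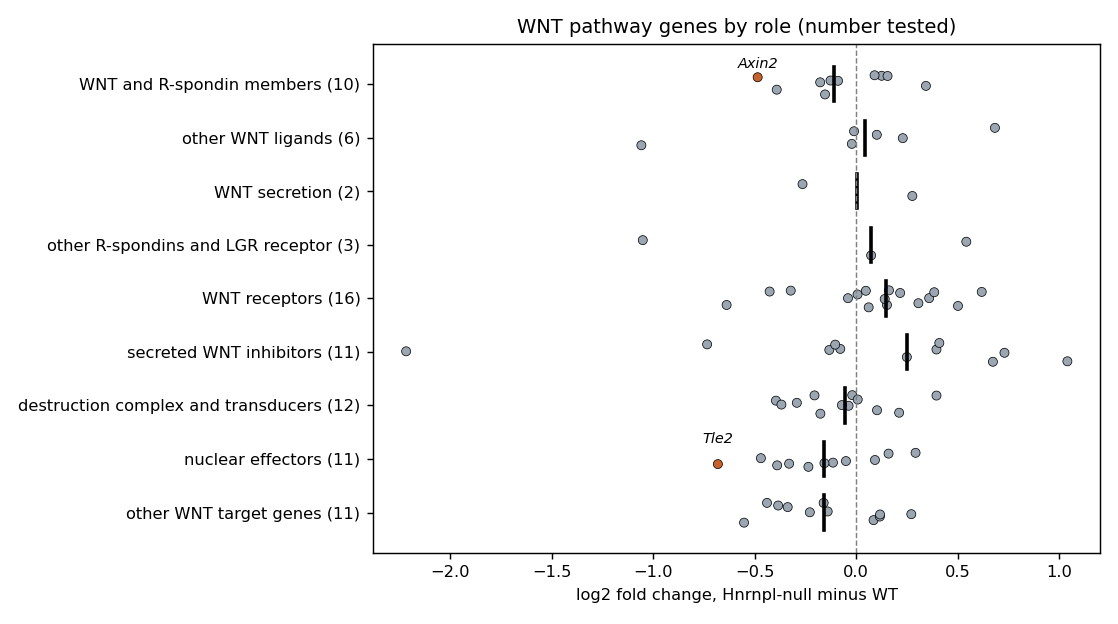
Log2 fold change of every tested WNT pathway gene, Hnrnpl-null minus WT, in 9 lists by role, with the number tested in brackets, a black line at each list's median and filled points for genes called by edgeR. Axin2 and Tle2 are those calls. The vertical scatter within a list has no meaning.

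Because Rspo1 and Wnt4 hold off testicular development, markers of Sertoli and Leydig cells were read beside them. They summed to 25.2 to 25.3 CPM in WT and 23.7 to 33.9 CPM in Hnrnpl-null. Of 4 tested, edgeR, DESeq2 and limma-voom called 0, and 0 had an unadjusted p below 0.05. Sox9, the Sertoli cell factor, was at 5.92 ± 1.34 in WT and 7.37 ± 1.7 CPM in Hnrnpl-null (edgeR adjusted p = 0.55), and Dmrt1 was at 0.263, 0 and 0.276 CPM in WT and 0 in all 3 Hnrnpl-null libraries.

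The genes whose pattern over the 6 libraries was closest to Axin2 and Wnt5a were sought among 7632 genes with a mean of at least 10 CPM, by the root mean square difference of centred log2 CPM. Closest to Axin2 were Celsr2, Ccdc136 and Ppp1r26, at 0.04, 0.05 and 0.06 log2 units, where the median gene was at 0.34. Celsr2 was at 21.7 in WT and 14.9 CPM in Hnrnpl-null on average (edgeR adjusted p = 0.094). Closest to Wnt5a were Map3k20, Psma5 and Lamp2, at 0.03, 0.04 and 0.04 log2 units, where the median gene was at 0.27. None of these 6 genes was called by edgeR, with adjusted p-values of 0.086 to 0.28.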

How the data were processed

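RNA-seq counts per gene were analysed for 6 ovary libraries, 3 WT and 3 Hnrnpl-null. The authors deposited 1 table of raw counts, with each gene's exon positions and exonic length and, per the file headers, in the layout of featureCounts. The build mm10, featureCounts 2.0.6, HISAT2 2.2.1 and STAR 2.7.11a appear, with no role given, per the submitters' processing notes. The sources used here give neither the annotation nor the strand setting. Of counts from 1 to 20, 93.4% to 98.4% per library were even, as when both mates of a pair are counted, so Poisson intervals were computed on read pairs (counts divided by 2). They cover counting error only.

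The test was edgeR 4.0.16 (R 4.3.3: filterByExpr, TMM, glmQLFit and glmQLFTest, two-sided, genotype as the only term). All 14849 genes left by the filter were fitted and adjusted together (Benjamini-Hochberg, called below 0.05). Standard errors and intervals come from the F statistic. RPKM divides CPM by the deposited exonic length. Library ratios used log2 of counts with a pseudocount of 1. The alternatives were DESeq2 1.42.0, limma 3.58.1 with voom, other scalings, filters and dispersions, halved counts, a threshold of 0.01, a replicate block, leaving out libraries, and other pseudocounts.

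The members and lists were chosen with earlier results of these data known. All members were named, with the called genes of each WNT list (or the most abundant per length where none was called) and, for Axin2 and Wnt5a, the members with the smallest p, the 3 most similar genes. Axin1, Irx3, Porcn, Sfrp2, Tcf7, Tle1 and the marker genes named were picked with their values in view. The code was tested on simulated counts. Promoter sequences are from RefSeq (GRCm38.p6).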

Additional observations from a re-analysis of the deposited data

How the results depend on the processing

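Of 200 values of the 10 fold changes under the alternatives, 182 kept their direction and side of the threshold. The alternative with a threshold of 0.01 reuses the main fit, so its fold changes could not differ in direction. The Axin2 call was lost with library totals alone, at the 0.01 threshold, and in the fits without libraries given above. Lef1 turned negative in limma-voom (-0.26), with library totals alone (-0.28) and without both Rn45s-rich libraries (-0.43), and ran from -0.25 to 0.49 with 1 library left out. Znrf3 ran from -0.18 to 0.044 in those fits. Scaling to the pregranulosa markers, Kitl among them, gave -0.005 for Wnt4 and -0.048 for Lgr4, with the median of all genes at -0.13. The cause was not tested in any of these cases.

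The members called went from 1 to 0 at the 0.01 threshold, with library totals alone and without both Rn45s-rich libraries, to 2 in limma-voom, and to 0 or 1 with 1 library left out. The other WNT genes called went from 1 to 0 at the 0.01 threshold and with library totals, to 5 in DESeq2, 7 in limma-voom, 2 without the Rn45s row, 2 with no filter, 2 with a CPM filter, 3 with halved counts, 3 with robust dispersions, and 0 to 3 with 1 library left out. It was also 1 with pregranulosa scaling and without both Rn45s-rich libraries, but the gene was then Irx3 (lower) and Sfrp2 (higher), not Tle2. Over the whole table, 663 calls became 236 at the 0.01 threshold, 1086 in DESeq2, 1273 in limma-voom, 4 with library totals, 380 with pregranulosa scaling (147 higher and 233 lower, against 397 and 266), 1104 with no filter and 249 to 853 with 1 library left out. Members with a promoter motif went from 0 to 1 with the shorter core.

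The replicate numbers of the titles gave no sign of pairing the libraries. Deviations of same-numbered libraries from their group means correlated at -0.12, 0.09 and -0.09, and 2 of 6 libraries matched their own number best. This check cannot exclude pairing, since the groups are small and the 2 libraries rich in Rn45s, which stand apart, carry different numbers. With a replicate block, 0 members, 1 other WNT gene and 444 genes in all were called, and Axin2 was at -0.48 (log2 scale; edgeR adjusted p = 0.064). The lowest counts behind a member's value were those of Rnf43 (24) and Lef1 (40). The planned protein comparison was not run.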
